A study of Mus musculus with 2 samples.

Results

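The basement membrane genes described here were 29 genes taken by name: the 6 collagen IV chains, 9 laminin chains, 2 nidogens, the heparan sulfate proteoglycans Hspg2 (perlecan) and Agrn (agrin), the multiplexin collagens Col15a1 and Col18a1, the integrin ligand Npnt (nephronectin), and 7 receptor genes. All 29 of 29 were listed in both count tables, which together held 24417 genes. The rule is a list of names and has no threshold on a measured value, but the list was drawn up with earlier results of these data known.

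The cells came from lungs of C57BL/6 mice that were wild type (WT) or carried CCR2-/- (here CCR2KO), the deletion of a chemokine receptor gene used by monocytes. Every mouse had received silica, a mineral dust that injures and scars the lung, at 400 mg/kg into the trachea, and lungs were taken on days 3, 7 and 21. There was no group without silica, and age and sex are not given in the sources used here. Each genotype was 1 library of pooled suspensions marked by hashtag antibodies, with 9 tags in WT and 8 in CCR2KO, so that genotype and cartridge cannot be told apart. No key from tag to day or mouse is given in the sources used here. Tags were therefore grouped only by number into 3 blocks (tags 1 to 3, 4 to 6 and 7 to 9; the last block of CCR2KO held tags 7 and 8), and no day was assigned to a block.

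Basement membranes are thin sheets of matrix that lie under epithelium and endothelium and around muscle cells and pericytes. Laminins, each built of an alpha, a beta and a gamma chain, polymerise at the cell surface, and collagen IV chains wind into triple helices that crosslink into another network; nidogens and perlecan connect both. In the alveolus the epithelial and the capillary membranes fuse, and gas crosses this shared sheet. The collagen IV helices are of 3 kinds: Col4a1 with Col4a2, Col4a3 with Col4a4 and Col4a5, and Col4a5 with Col4a6.

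Levels are reads per 1000000 reads of a cell type in a tag (CPM), given as means over tags ± SD. Values are reads and not molecules, and the p-values measure only the spread between tagged suspensions. After filters 16812 WT and 14873 CCR2KO cells were kept, with 1606 to 2097 cells and between 54097962 and 91391724 reads per tag. As a check of the labels, Ccr2 lay between 53.9 and 96.3 CPM over all cells in the 9 WT tags and between 1.45 and 4.39 CPM in the 8 CCR2KO tags. Of the cell numbers in the column names, 318 occurred in both tables.

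Cell types were named from marker genes, none of which was a member, and the members were kept out of the clustering. There were 15 epithelial, endothelial and stromal types, and 14 of them had enough tags to be tested. They held 709 alveolar type 1-like, 2417 alveolar type 2-like, 226 club-like, 239 ciliated-like and 90 mesothelial-like cells. Among endothelial cells, 5381 took only the broad name, beside 1353 aerocyte-like (the wide alveolar capillary cells), 412 large vessel-like and 368 lymphatic-like cells. Stromal cells were 2208 alveolar, 829 adventitial and 1812 activated fibroblast-like, 673 of cluster 17, 587 smooth muscle-like and 629 pericyte-like cells. Cluster 17 stayed unnamed, because proliferation genes and activated fibroblast markers led it together. Mesothelial-like cells came from 3 WT and 87 CCR2KO cells and were described, not tested. Their levels throughout are means over only 4 tags, all CCR2KO, of 12 to 15 cells each. Haemoglobin genes led cluster 5 of the broad endothelial-like cells. B cell-like and neutrophil-like cells, which are not known to build basement membranes, served as background types. Whether their reads came from free RNA or from the cells themselves was not tested.

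The genes of each collagen IV pair lie head to head on 1 chromosome. In RefSeq (GRCm38.p6), Col4a1 is at chr8:11198423-11312889 and Col4a2 at chr8:11312805-11449287, with starts that overlap by 85 bases. Col4a4 is at chr1:82448419-82587034 and Col4a3 at chr1:82586921-82722059, which overlap by 114 bases, while Col4a6 (chrX:141165403-141474095) and Col4a5 (chrX:141475370-141689236) are separated by 1274 bases. Whether counting used strand is not given in the sources used here, so reads within the overlaps cannot be told apart. A stretch from the RefSeq promoter table is shown for Col4a1 and Col4a2 because they share their start, and one for Col4a5 to set a start without overlap beside it. The first, 30 bases on the plus strand at chr8:11312801-11312830, spans the table's start sites of Col4a1 (base 11312826) and Col4a2 (base 11312805), and capitals mark a GC box. The other lies before the start of Col4a5, on the plus strand at chrX:141475169-141475369, and capitals mark a CCAAT box.
Col4a1 and Col4a2: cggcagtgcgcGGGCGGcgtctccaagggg
Col4a5: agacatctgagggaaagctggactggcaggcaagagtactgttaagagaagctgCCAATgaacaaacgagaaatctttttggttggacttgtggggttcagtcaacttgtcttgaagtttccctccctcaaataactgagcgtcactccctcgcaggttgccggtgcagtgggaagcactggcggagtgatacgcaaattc

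Promoter windows of 300 bases were in the table for 21 of the 29 members. The letters GGGCGG, on either strand, were in 15 of these 21 windows and in 35.9% of all 27025 windows. CCAAT on either strand was in 7 of 21 and in 37.9% of all. A match is only a match of letters. Col4a3, Lama1, Lama3, Lama4, Lamc1, Itga6, Itgb4 and Nid2 are named only.

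Each gene had its own order of cell types. By mean level, 9 of the 29 were highest in alveolar type 1-like cells, the flat cells of gas exchange. Alveolar fibroblast-like cells led for 6, smooth muscle-like cells for 5, pericyte-like cells for 4 and broad endothelial-like cells for 2. Adventitial fibroblast-like, ciliated-like and lymphatic-like cells led for 1 gene each. For 19 of the 29 the next tested type lay within the larger SD of the 2 types. The other 10 were Col4a3, Col4a4, Lama3, Lamb3, Agrn, Col18a1, Npnt, Dag1, Itga1 and Itgb1. The level in the leading type was 4.04 to 2100 times that of the higher background type, and for 23 of 29 every tag of the leading type was above every B cell-like and neutrophil-like tag.

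**Figure D1:**
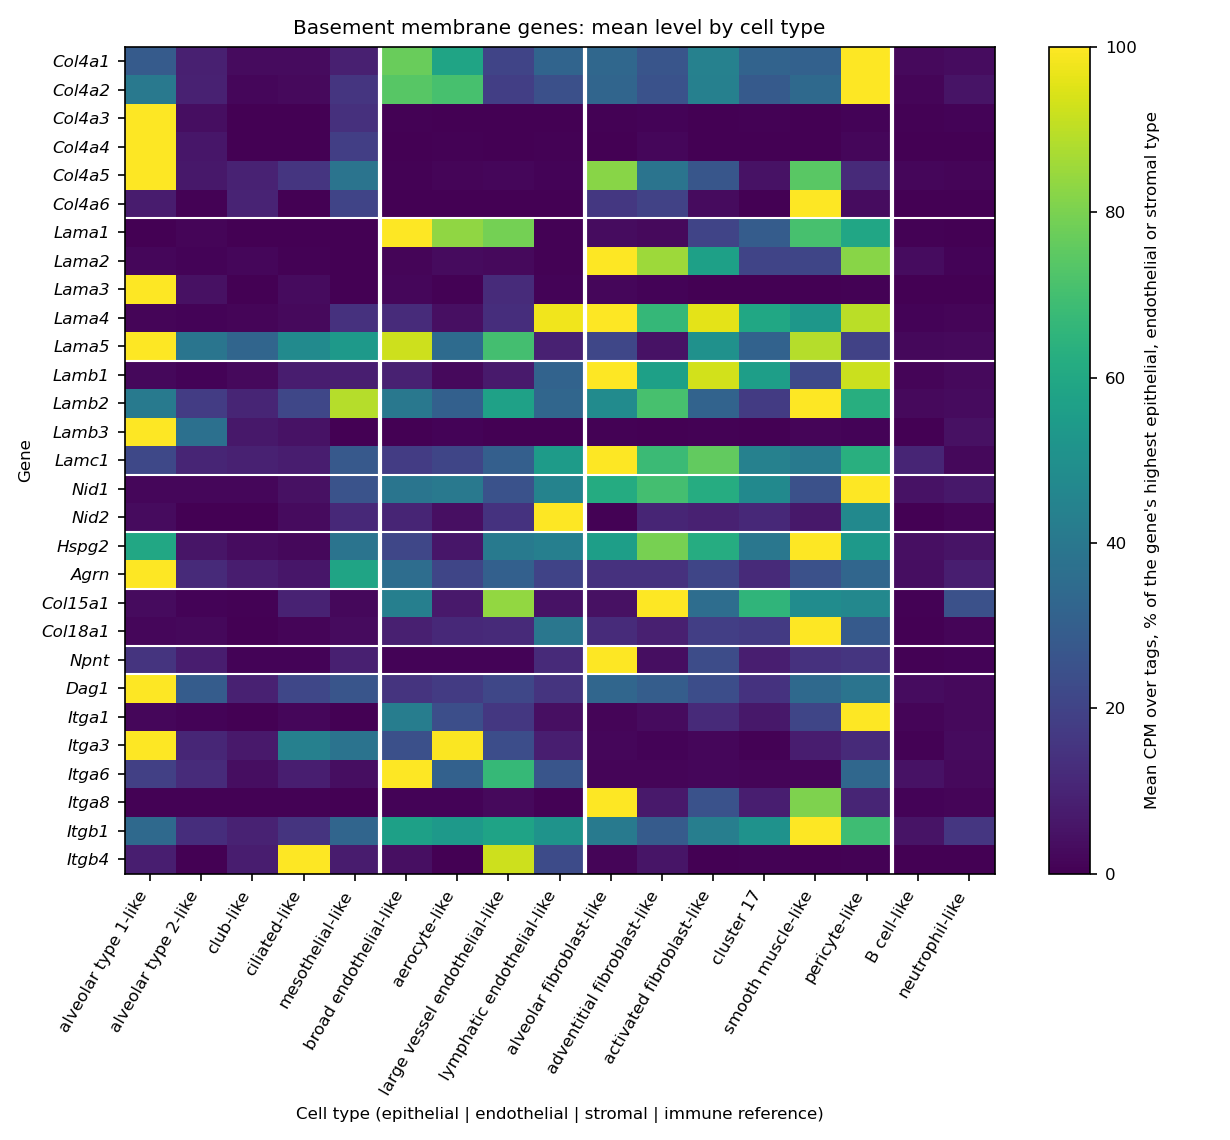
Level of each of the 29 genes (rows) in 15 cell types and in B cell-like and neutrophil-like cells (columns). Colour is mean CPM over tags in percent of that gene's highest type among the 15, and brighter is higher. Col4a3, Col4a4, Lama3 and Lamb3 are bright mainly in the alveolar type 1-like column, Npnt in the column of alveolar fibroblast-like cells and Col18a1 in that of smooth muscle-like cells.

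Col4a1 and Col4a2, the chains of the widespread collagen IV helix, were highest in pericyte-like cells. Col4a1 ranged in pericyte-like cells from 951 to 2852 CPM with a median of 1670 over the 9 WT tags, and from 1223 to 2696 with a median of 1725 over the 8 CCR2KO tags. The genotypes overlapped over nearly their whole range. Broad endothelial-like cells followed at 1416 CPM and aerocyte-like cells at 1073 CPM, within the larger SD of their neighbour in that order. Col4a1 was 807 CPM in activated fibroblast-like and 529 CPM in alveolar type 1-like cells, against 63.7 in neutrophil-like and 49.2 in B cell-like cells. Col4a2 was 1044 ± 287 CPM in pericyte-like cells (n = 17), 774 in broad endothelial-like and 738 in aerocyte-like cells. At an equal depth of 5000 reads per cell, 82.4% of WT and 76.0% of CCR2KO pericyte-like cells had a Col4a1 read, against 6.61% and 4.60% of B cell-like cells. Before thinning the shares were 89.6% and 84.6% in pericyte-like cells (median 27366.5 and 22862 reads), and 13.4% and 7.32% in B cell-like cells (12769 and 11509.5).

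Col4a3 and Col4a4, which join Col4a5 in the helix of the alveolar and glomerular membranes, were reads almost of 1 type. Col4a3 ranged in alveolar type 1-like cells from 75.2 to 1026 CPM with a median of 316 in WT, and from 165 to 663 with a median of 284 in CCR2KO. Its mean there was 369 ± 242 CPM (n = 17), against 50.9 ± 54.5 in mesothelial-like (n = 4) and 13.7 in alveolar type 2-like cells. Col4a4 was 258 ± 127 CPM in alveolar type 1-like cells, 48.2 in mesothelial-like and 15.4 in alveolar type 2-like cells. Both genes were below 5 CPM in every other type described. The spread between tags was wide, and the lowest WT tag for Col4a3 lay below all CCR2KO tags while the highest lay above them.

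Col4a5 was shared by epithelium and mesenchyme. Its mean was 198 ± 133 CPM in alveolar type 1-like cells (n = 17), 164 in alveolar fibroblast-like and 148 in smooth muscle-like cells. These neighbours in the order did not differ beyond their SD. In broad endothelial-like cells it was 1.38 CPM, under the 3.64 CPM of B cell-like cells. Col4a6, its partner in smooth muscle membranes, was highest in smooth muscle-like cells, from 17.7 to 239 CPM in WT (median 56.8) and from 0 to 78.9 in CCR2KO (median 18.6). The ranges overlapped, and mesothelial-like cells came next at 10.5 CPM.

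**Figure D2:**
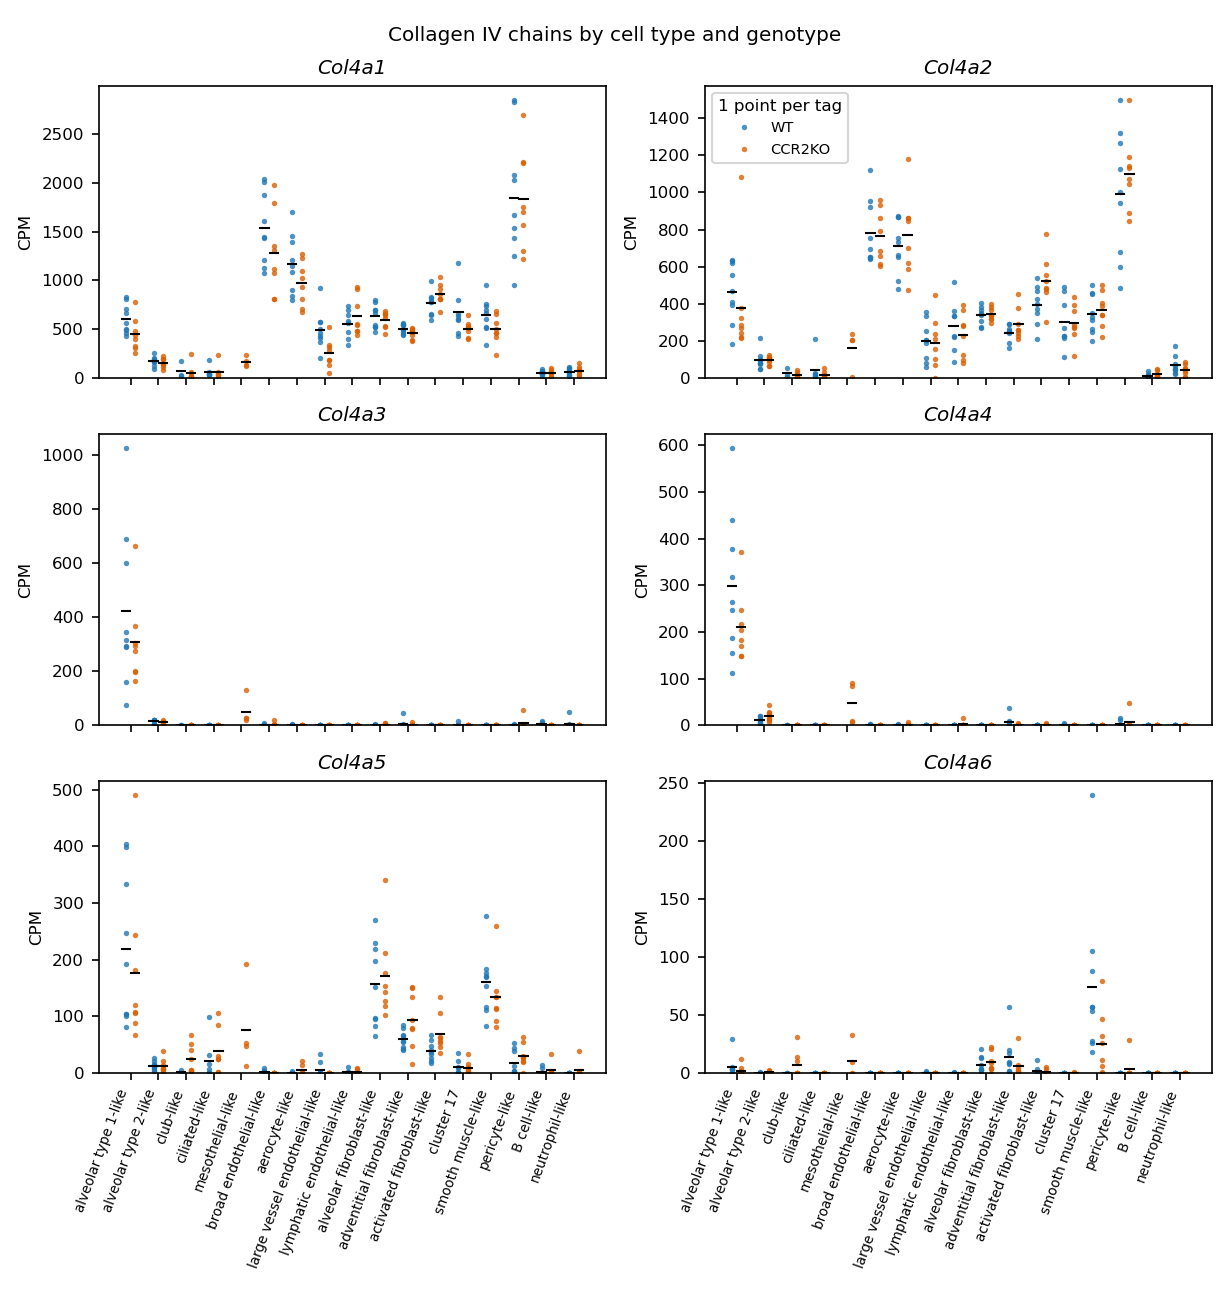
CPM of the 6 collagen IV genes in the cell types, 1 point per tag and colour by genotype. Col4a1 and Col4a2 are present across stromal and endothelial types, whereas the Col4a3 and Col4a4 points leave the baseline mainly in alveolar type 1-like cells.

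The levels of head-to-head partners ranked the types alike to different degrees. Over the 14 tested types, which share libraries and depth, Col4a1 and Col4a2 had a Pearson r of 0.99 on log2(CPM + 1) and a Spearman rho of 0.91. Col4a3 and Col4a4 had 0.97 and 0.79, and Col4a5 and Col4a6 had 0.78 and 0.74. These are descriptions; reads within the overlaps of Col4a1 with Col4a2 and of Col4a3 with Col4a4 were not measured.

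**Figure D3:**
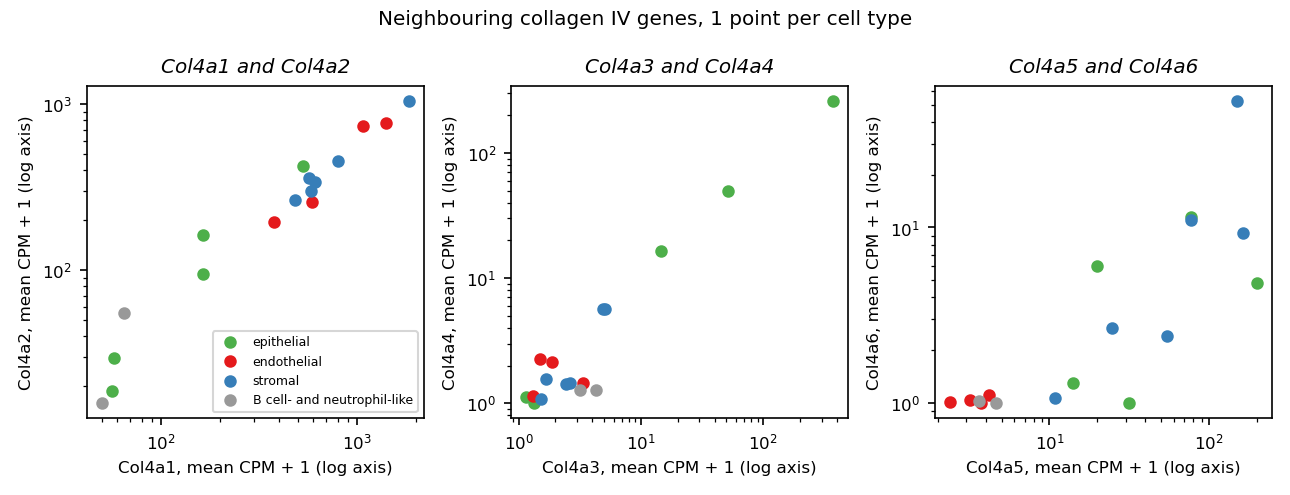
Mean CPM of the collagen IV neighbours against each other, 1 point per cell type, both axes log-scaled after adding 1. Col4a1 and Col4a2 lie close to 1 line, and for Col4a3 and Col4a4 the alveolar type 1-like point stands far above the rest.

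Among laminin alpha chains, the part that binds cell receptors, Lama3 was highest in alveolar type 1-like cells, Lama2 in fibroblast-like cells and Lama4 about equally in fibroblast-like, lymphatic-like and pericyte-like cells. Lama3, the chain of epithelial anchoring laminins, was 137 CPM in alveolar type 1-like cells, from 18.6 to 302.5 in WT and from 51.8 to 370 in CCR2KO, against 16.7 in large vessel-like cells. Lama2, the chain of muscle and stromal laminins, was 129 CPM in alveolar fibroblast-like cells, 110 in adventitial fibroblast-like and 106 in pericyte-like cells. Lama4, known from vessel walls, was 223 CPM in alveolar fibroblast-like, 217 in lymphatic-like, 214 in activated fibroblast-like and 199 in pericyte-like cells. In broad endothelial-like cells Lama4 reached only 27.0 CPM. Lama5, the broad chain of mature membranes, was 128 CPM in alveolar type 1-like, 118 in broad endothelial-like and 113 in smooth muscle-like cells, which did not differ beyond their SD. Lama1, the chain of early embryonic membranes, stayed low, with 16.3 CPM in broad endothelial-like cells and a WT range from 0.297 to 49.0 CPM.

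Lamb1, a beta chain of mesenchymal and vascular laminins, was 363 CPM in alveolar fibroblast-like, 338 ± 66.1 in activated fibroblast-like and 333 in pericyte-like cells, and 8.06 CPM in alveolar type 1-like cells. Lamb3, partner of Lama3 in the anchoring laminin, was 182 ± 55.1 CPM in alveolar type 1-like cells (n = 17), 66.9 in alveolar type 2-like and 11.8 in club-like cells. It was read in no tag of lymphatic-like, large vessel-like or mesothelial-like cells. Lamb2, a beta chain of synapses, muscle and vessels, was 199 ± 96.4 CPM in smooth muscle-like cells, 177 in mesothelial-like and 141 in adventitial fibroblast-like cells. Lamc1, the gamma chain of most laminins, was 305.8 ± 86.3 CPM in alveolar fibroblast-like and 232 in activated fibroblast-like cells. Its lowest mean among the 15 types was 23.9 CPM, in ciliated-like cells. That lay under the 31.6 CPM of B cell-like cells and above the 6.92 CPM of neutrophil-like cells. Of all 406 gene pairs, Lama4 and Lamb1 had the highest rho over the 14 types (0.93; r = 0.95), and Lama4 with Lamc1 had 0.89 (r = 0.92). Lama3 with Lamb3, for which most types are near 0, had a rho of 0.12 (r = 0.59).

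Of the linkers and proteoglycans, Nid1 and Hspg2 were highest in mesenchymal types, Nid2 in an endothelial and Agrn in an epithelial type. Nid1, which bridges laminin and collagen IV, was 403 ± 190 CPM in pericyte-like cells and 283 in adventitial fibroblast-like cells, against 7.11 in alveolar type 1-like cells. Its relative Nid2 was highest in lymphatic-like cells, from 22.5 to 288 CPM in WT (median 64.7, n = 8) and from 31.1 to 280 in CCR2KO (median 109, n = 8), and 60.0 CPM in pericyte-like cells. Hspg2, a proteoglycan that stores growth factors, was 176 ± 65.5 CPM in smooth muscle-like and 139 in adventitial fibroblast-like cells. Agrn, which ties laminin to dystroglycan, was instead highest in alveolar type 1-like cells, at 272 ± 82.5 CPM against 159 in mesothelial-like and 97.1 in broad endothelial-like cells.

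Col15a1, which links membranes to fibrillar collagen, was 134 ± 49.1 CPM in adventitial fibroblast-like and 112 in large vessel-like cells. Neutrophil-like cells held 33.1 CPM of it and B cell-like cells 0.819 CPM, so the 2 background types differ for this gene. Col18a1, the source of endostatin, ranged in smooth muscle-like cells from 658 to 939 CPM in WT (median 877) and from 524 to 1273 in CCR2KO (median 716). Lymphatic-like cells came next at 315 ± 269 CPM (n = 16). That mean was below every smooth muscle-like tag, but the lymphatic-like tags spread widely around it.

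Npnt and the integrin subunit Itga8, whose product is its receptor, were both highest in alveolar fibroblast-like cells. Npnt ranged there from 1509 to 2798 CPM in WT (median 2405) and from 1589 to 2961 in CCR2KO (median 1996). It was 500 CPM in activated fibroblast-like and 326 CPM in alveolar type 1-like cells. At 5000 reads per cell, 83.0% of WT and 76.8% of CCR2KO alveolar fibroblast-like cells had an Npnt read, against 2.93% and 1.95% of B cell-like cells. Itga8 was 544 ± 105 CPM in alveolar fibroblast-like, 438 in smooth muscle-like and 136 in activated fibroblast-like cells. Over the 14 types Npnt and Itga8 had a rho of 0.65 (r = 0.69).

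Receptors split between compartments. Dag1 (dystroglycan, which binds laminin, perlecan and agrin) was 676 ± 255 CPM in alveolar type 1-like and 261 in pericyte-like cells. Itga3, the alpha subunit of a laminin receptor of epithelium, was equal within its SD in alveolar type 1-like (262 ± 89.5 CPM) and aerocyte-like cells (260 ± 77.4). Itga6, also a laminin receptor subunit, was 496 ± 80.9 CPM in broad endothelial-like and 331 in large vessel-like cells. Itga1, a collagen receptor subunit, was 531 ± 240 CPM in pericyte-like and 225 in broad endothelial-like cells. Itgb1, the beta subunit shared by these receptors, was 1371 ± 356 CPM in smooth muscle-like and 945 in pericyte-like cells, with 214 CPM in neutrophil-like cells. Itgb4, the hemidesmosome subunit that pairs only with Itga6, was 82.1 ± 57.5 CPM in ciliated-like cells (n = 14) and 75.8 in large vessel-like cells, which overlapped. Itga1 and Itgb1 had a rho of 0.90 over the 14 types, while Itga6 and Itgb4 had 0.22.

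The comparison of CCR2KO with WT asks how the absence of CCR2 bears on the silica-treated lung. No basement membrane gene passed the test in any type: 0 of 266 gene and type pairs had an adjusted p under 0.05 by edgeR's quasi-likelihood test with Benjamini-Hochberg adjustment over all genes of the type. Over all genes and types, 0.154% of tests passed. At an unadjusted p under 0.05 there were 20 of 266 pairs (7.52%), and DESeq2 also called 0. The share of all genes at that limit is not given, here or below, so the unadjusted counts have no baseline. In simulated counts the edgeR step left most 2-fold changes uncalled in every type. Of 4-fold changes it called 59% in broad endothelial-like and 50% in alveolar type 2-like cells. In the other types this ran from 0% (club-like) to 48% (adventitial fibroblast-like). A count of 0 therefore does not show that the members were alike. Of the 266 changes 147 were positive, with a median log2 change (CCR2KO over WT) of 0.05. CCR2KO cells had a median of 922 detected genes and WT cells 1189.5, and the part of this difference in the levels was not tested. In club-like cells (17 of the pairs) only WT tags 7, 8 and 9 held enough cells, beside CCR2KO tags of every block. Genotype and tag block are thus mixed in that type.

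The smallest adjusted p-values were for laminins and a nidogen in fibroblasts, each with a positive estimate. Lama2 in adventitial fibroblast-like cells ranged from 43.5 to 136 CPM in WT (median 84.3) and from 100 to 174 in CCR2KO (median 141), a log2 difference of 0.69 ± 0.21 (SE; edgeR adjusted p = 0.176). In alveolar fibroblast-like cells Lama2 was 75.3 to 141 CPM in WT (median 98.2) and 116 to 190 in CCR2KO (median 158), a difference of 0.53 ± 0.17 (edgeR adjusted p = 0.319). In activated fibroblast-like cells it was 49.2 CPM in WT and 101 CPM in CCR2KO, a difference of 0.99 ± 0.30 (edgeR adjusted p = 0.299). The ranges overlapped in each of these types, and none of the differences passed.

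Nid1 in activated fibroblast-like cells ranged from 123 to 276 CPM in WT (median 199) and from 252 to 392 in CCR2KO (median 286), a log2 difference of 0.57 ± 0.16 (edgeR adjusted p = 0.220). Lamb1 there was 291 CPM in WT and 390 CPM in CCR2KO (edgeR adjusted p = 0.332). Lamc1 was 189 and 282 CPM in activated fibroblast-like cells, and 170 and 251 CPM in adventitial fibroblast-like cells, again without passing. In activated fibroblast-like cells 7 of 22 members tested had an unadjusted edgeR p under 0.05, a count without the share of all genes beside it. Fewer than these 7 are named here, and those named all had positive estimates. Of the 22 members 13 were higher and 9 lower in CCR2KO (median log2 0.11, all genes there 0.00). Their changes ran from -2.40 to 0.99, so the largest was negative. Naming these members rests on their rank in this comparison, and it supports no claim of a group change.

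Alveolar type 1-like cells showed the opposite sign without a call. There 16 of 18 members were lower in CCR2KO, with a median log2 difference of -0.27 against 0.00 for all genes. The smallest edgeR adjusted p was 0.9998. The 41 genes tested there from the partner lists given below had a median of -0.39, so the sign was not particular to the members. Median detected genes per tag ran from 898.5 to 1683 in CCR2KO and from 1293 to 2227 in WT, and their part was not tested. The signs share the same tags and are given without a test. Lama5 was 170 ± 128 CPM in WT and 80.0 ± 40.04 CPM in CCR2KO, and Itga3 was 307.1 ± 82.1 and 210 ± 70.3 CPM. In broad endothelial-like cells, Itga6 was 455 ± 69.1 CPM in WT and 542 ± 69.9 in CCR2KO (log2 0.28; edgeR adjusted p = 0.374), and Col18a1 was 82.3 and 54.4 CPM (edgeR adjusted p = 0.584). None of these passed either.

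**Figure D4:**
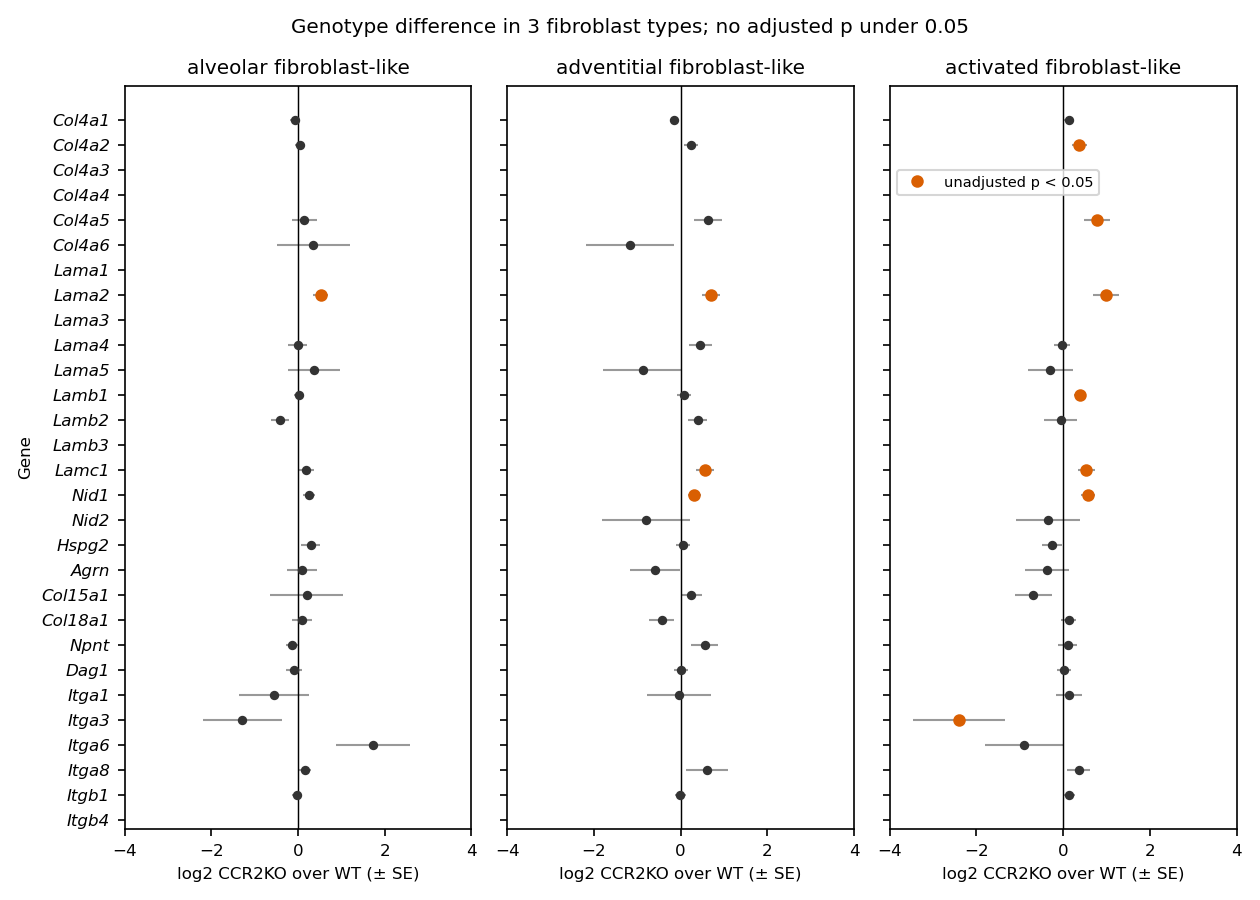
Log2 difference of CCR2KO over WT (± SE) for each gene tested in 3 fibroblast-like types; orange points have an unadjusted p under 0.05. Lama2 lies right of 0 in each panel, and no adjusted p was under 0.05.

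Tag blocks differed more often. Of the same 266 pairs 10 passed the test of any difference between the 3 blocks (edgeR with genotype as a covariate), and 56 had an unadjusted p under 0.05. Over all genes and types, 1.15% of tests passed. The 10 pairs were in 4 types, in which 3.46% (alveolar type 1-like), 3.01% (alveolar type 2-like), 3.47% (activated fibroblast-like) and 2.3% (broad endothelial-like) of all genes passed. The members' counts there were 1 of 18, 2 of 22, 3 of 22 and 4 of 22. In 9 of the 10 the level was lower in the last block than in the first. Since no day is tied to a block, these are differences between tag numbers only.

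The count changed with the clustering. The clustering was repeated with another random seed and with another numerical kernel of the linear algebra library, both chosen after seeing the data. Then 17 and 18 pairs passed, of which 9 and 8 were among the 10. Activated fibroblast-like cells numbered 3080 and 2304 there, and 11 of 24 and 10 of 23 members tested in them passed, among them Agrn, Col18a1, Col4a1, Col4a5, Dag1 and Itga1 in both. Of all genes 9.44% and 11.9% passed in those cells, against 3.47% in the clustering described here. Npnt, Itga8 and Lama4 passed in each. Col4a5 in alveolar type 1-like cells was lost with both (edgeR adjusted p = 0.0525 and 0.0616), and Hspg2 in broad endothelial-like cells with the other kernel (0.0807). At the lower Leiden resolution of 0.8, 15 pairs passed, 7 of the 10 among them, and Npnt (edgeR adjusted p = 0.0910) and Itga8 (0.0574) in activated fibroblast-like cells and Col4a5 (0.0530) did not. In activated fibroblast-like cells at this resolution, 7 of 23 members and 10.9% of all genes passed. The other kernel also left no cluster with the large vessel name.

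In alveolar type 2-like cells, the surfactant-producing cells, Lamb3 and Dag1 were highest in the first block. Lamb3 was 111, 78.3 and 149 CPM in WT tags 1 to 3 and 106, 111 and 112 in CCR2KO tags 1 to 3. In the middle block it lay between 24.0 and 56.7 CPM, and in the last between 29.8 and 74.7 CPM, so that the first block was above all other tags. The log2 difference from the first block was -1.58 in the middle and -1.07 in the last (edgeR adjusted p = 0.00199). Dag1 was 283, 311 and 275 CPM in WT tags 1 to 3 and 291, 312 and 268 in CCR2KO. It fell by 0.69 and by 1.27 on the log2 scale in the later blocks (means 175 and 114 CPM; edgeR adjusted p = 0.00207), and the last block did not overlap the first. Both calls held in each library alone, as did only Col4a1 in broad endothelial-like cells among the other 8. The summed markers of alveolar type 1-like cells, in which both genes are highest, moved alongside, from 3086 (2832 to 3348) to 2469 (2125 to 3173) and 2164 CPM (1935 to 2355). At least 10 of the 11 markers had reads in each tag. Their part in the result was not tested.

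Broad endothelial-like cells had 4 called genes. Col4a1 lay between 1316 and 1973 CPM in the first block, between 1072 and 2044 in the middle and between 808 and 1207 in the last, below every tag of the first (log2 -0.77; edgeR adjusted p = 0.00839). The middle block was split by genotype, with 2013, 2044 and 1871 CPM in WT and 1114, 1354 and 1072 in CCR2KO. The test of a genotype difference between blocks gave an unadjusted p of 0.000224 for it and an edgeR adjusted p of 0.455. Over all genes and types 0.0179% of such tests passed, and 0 of 249 pairs of members did (23 at an unadjusted p under 0.05).

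Hspg2 and Col15a1 were lowest in the last block of broad endothelial-like cells as well. Hspg2 was 15.5, 12.6 and 13.9 CPM in WT tags 7 to 9 and 11.0 and 5.47 in CCR2KO tags 7 and 8, against a mean of 50.2 CPM in the first block (log2 -2.24; edgeR adjusted p = 0.0107). A CCR2KO tag of the middle block, at 11.5 CPM, lay within the last block's range. The last block's values lie around the background of 9.41 CPM in neutrophil-like and 7.49 CPM in B cell-like cells. Col15a1 went from 87.7 to 55.4 and 24.5 CPM (log2 -0.64 and -1.79; edgeR adjusted p = 0.00746), and the highest tag of the last block reached 34.0 CPM against 33.6 in the lowest of the first. These last-block levels of Col15a1 are close to the 33.1 CPM of neutrophil-like cells and above the 0.819 CPM of B cell-like cells. Itgb1 went the other way, from 679 to 790 and 890 CPM (log2 0.21 and 0.37; edgeR adjusted p = 0.0199), with every tag of the last block above every tag of the first.

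Other values of broad endothelial-like cells moved with the blocks. The summed lymphatic markers were 766 CPM (633 to 939), 969 (661 to 1345) and 1966 (1779 to 2176), with 4 to 7 of the 8 markers read in a tag. Erythroid genes were 3109, 2181 and 1243 CPM, with single tags between 0.00 and 18624. Cluster 8 made up 27.9%, 32.3% and 18.8% of these cells, and the part of these values in the results was not tested. With cluster 5, led by haemoglobin genes, left out, an alternative chosen after seeing the data, Hspg2 (log2 -2.47; edgeR adjusted p = 0.0618) and Itgb1 (log2 0.37; 0.0603) no longer passed, with differences as large as before, and Agrn passed. Fitted in the clusters one by one, 3 of 55 pairs passed: Agrn, Col15a1 and Col4a1 in cluster 8. Of all genes 0.303% passed in cluster 4, 0.142% in cluster 5 and 1.19% in cluster 8.

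In activated fibroblast-like cells Npnt, Itga8 and Lama4 were lower in later blocks. Npnt was between 473 and 828 CPM in the first block, between 208 and 450 in the middle and between 359 and 575 in the last (log2 -0.89 and -0.52; edgeR adjusted p = 0.0134). Only the middle block was wholly below the first. Itga8 went from 197 to 107 and 98.3 CPM (log2 -0.89 and -0.96; edgeR adjusted p = 0.0341), and Lama4 from 256 to 224 and 149 CPM (log2 -0.21 and -0.77; edgeR adjusted p = 0.0360). For Lama4 no tag of the last block reached the lowest of the first, while for Itga8 WT tag 3, at 87.6 CPM, lay inside the last block. All 3 genes were as high or higher in alveolar fibroblast-like cells, and the summed markers of that type in activated fibroblast-like cells went from 6234 CPM (4724 to 7515) to 4688 (3107 to 5681) and 4001 (3590 to 5221). Adventitial markers went from 6518 to 5199 and 3558 CPM, and between 10 and 14 of the 14 alveolar fibroblast markers were read in each tag. The last block held 25 to 35 activated fibroblast-like cells per tag, against 64 to 204 in the others. The part of these values in the result was not tested.

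In alveolar type 1-like cells Col4a5 passed with 330, 109 and 148 CPM in the blocks (log2 -1.39 and -1.06; edgeR adjusted p = 0.0494). WT tags 1 to 3 stood at 398, 404 and 334 CPM, and CCR2KO tags 1 to 3 at 244, 107 and 490, so that CCR2KO tag 2 fell among the later tags. Col4a3 (549, 194 and 361 CPM) and Col4a4 (375, 175 and 218 CPM) had block means in the same order but edgeR adjusted p-values of 0.103 and 0.121. Markers of the type itself summed to 21324, 12465 and 15546 CPM and club markers to 943, 2890 and 5671 CPM, and their part was not tested. Only 17 to 88 of these cells were in a tag.

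The calls differed in how much they leaned on 1 library or on single tags. Fitted in the WT library alone, 5 of the 10 passed, and in CCR2KO alone 3. Col15a1 (edgeR adjusted p = 0.127 in WT and 0.0929 in CCR2KO), Npnt (0.0516 and 0.0988), Itgb1 (0.0901 and 0.712), Itga8 (0.349 and 0.0831) and Lama4 (0.263 and 0.105) passed in neither, and Hspg2 (0.306) and Col4a5 (0.370) did not pass in CCR2KO. Each of the 17 tags was also left out in turn, and Lamb3, Dag1, Col15a1, Col4a1, Hspg2 and Npnt passed in all 17 of these refits. Itgb1 was lost without WT tag 2, 7 or 8 (edgeR adjusted p up to 0.0689). Itga8 was lost in 8 refits (up to 0.104) and held without CCR2KO tags 4, 5, 7 or 8 and without WT tags 3, 5, 7, 8 or 9. Lama4 was lost in 11 (up to 0.0914) and held without CCR2KO tag 5 and without WT tags 3, 4, 5, 8 or 9. Col4a5 was lost in 14 (up to 0.200) and held only without CCR2KO tag 2 or 6 or WT tag 7. With cells of at least 500 genes and at most 10% mitochondrial reads, Lamb3 (edgeR adjusted p = 0.147), Hspg2 (0.156), Itgb1 (0.125) and Col4a5 (0.103) did not pass. Without a filter on low counts Itgb1 (0.0791) and Col4a5 (0.0798) did not. All 10 changes kept their direction under each of these settings.

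**Figure D5:**
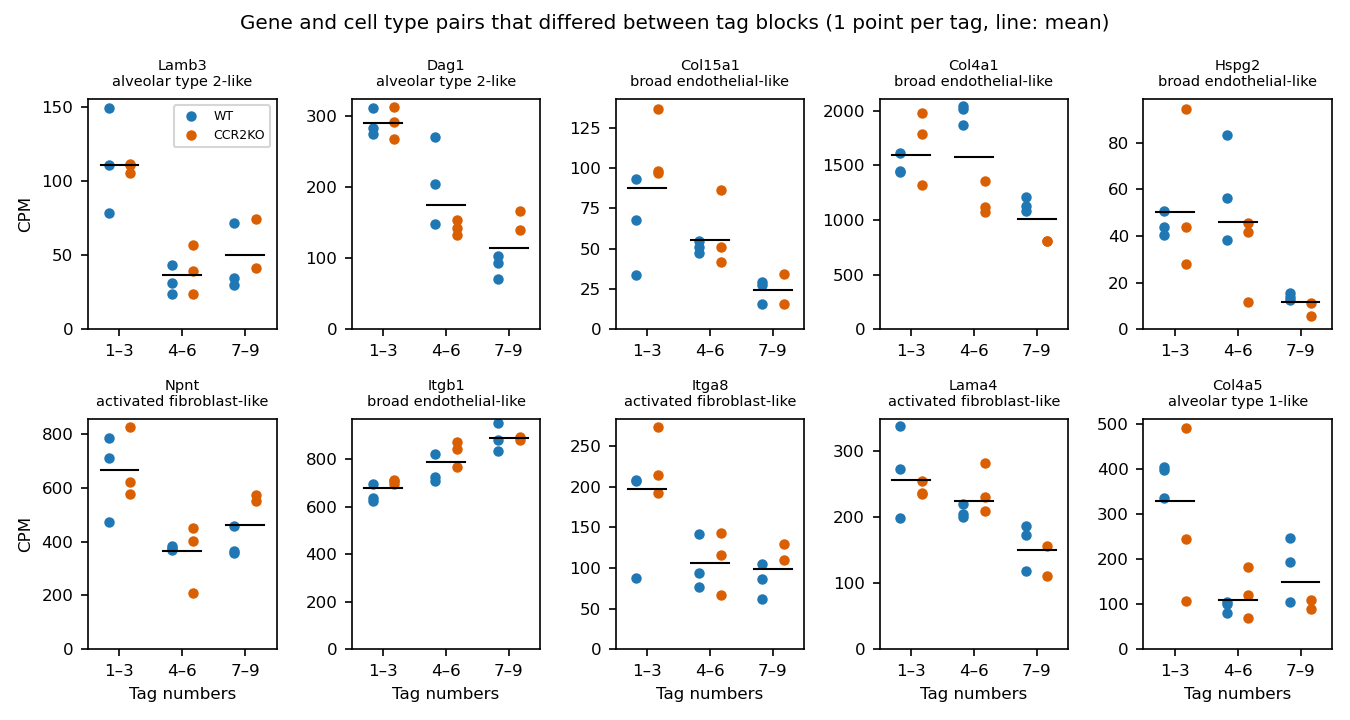
CPM of the 10 gene and type pairs that differed between tag blocks, 1 point per tag, colour by genotype, with the block mean as a line. All but Itgb1 in broad endothelial-like cells have a lower mean in the last block than in the first.

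Across types, Agrn was lower in the last block than in the first in 13 of 13 types tested, with 3 at an unadjusted p under 0.05 and 0 passing. In broad endothelial-like cells it went from 116 to 102 and 68.3 CPM (edgeR adjusted p = 0.055). Itgb1 was lower in the last block in 2 of 14 types. Among the members tested in 13 or 14 types, Agrn had the highest and Itgb1 the lowest such count. Both are thus extremes of the member list. Over all members, 160 of 266 pairs were lower in the last block than in the first. These counts share their tags and are given without a test.

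Of 65 partner genes of the basement membrane in 6 lists (other laminin chains and linkers, anchoring collagens, small membrane proteins, other receptors, collagen IV assembly enzymes, proteases with their inhibitors), 63 were tested in 582 pairs. By genotype 3 pairs were higher and 1 lower in CCR2KO: 2 of 51 in alveolar fibroblast-like, 1 of 51 in adventitial fibroblast-like and 1 of 48 in broad endothelial-like cells, where 0.377%, 0.547% and 0.289% of all genes passed. Sdc4, a cell surface proteoglycan, was 557 ± 107 CPM in WT (394 to 721) and 880 ± 102 in CCR2KO (760 to 1033) in alveolar fibroblast-like cells, with no overlap (log2 0.67 ± 0.12; edgeR adjusted p = 0.00379). Thbs1, an adhesive matrix protein, was 864 and 1553 CPM there (log2 0.85 ± 0.17; edgeR adjusted p = 0.0139), with tags that overlapped. Fbln1, a fibulin of the membrane, was 486 and 789 CPM in adventitial fibroblast-like cells (log2 0.70 ± 0.13; edgeR adjusted p = 0.0088), also with overlap. Mmp19, a metalloproteinase, was 5.59 CPM in WT and 0.756 in CCR2KO broad endothelial-like cells (log2 -2.83 ± 0.59; edgeR adjusted p = 0.0363), both low levels. The partner laminin chains, the anchoring collagens and the assembly enzymes had 0 calls by genotype, with 3, 2 and 6 pairs at an unadjusted p under 0.05 by edgeR.

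Between tag blocks 20 partner pairs passed, 5 with a higher and 15 with a lower level in the last block than in the first: 3 of 41 in alveolar type 1-like, 4 of 45 in alveolar type 2-like, 3 of 48 in broad endothelial-like, 2 of 51 in alveolar fibroblast-like and 8 of 56 in activated fibroblast-like cells. In alveolar fibroblast-like cells 0.276% of all genes passed, and the shares in the other types are those given above for the members. Serpinh1, the collagen chaperone, went from 947 to 615 CPM in broad endothelial-like cells (edgeR adjusted p = 0.0199) and from 257 to 138 CPM in alveolar type 2-like cells (0.00199). Timp3, a metalloproteinase inhibitor bound to matrix, went from 575 to 937 CPM in broad endothelial-like cells (edgeR adjusted p = 0.000542). In alveolar type 1-like cells it was lowest in the middle block, at 1848, 870 and 1694 CPM (edgeR adjusted p = 0.0110). The other called partners there were Tinagl1, a small membrane protein, at 185, 146 and 378 CPM (edgeR adjusted p = 0.0192), and the proteoglycan Spock2, at 763, 287 and 488 CPM (0.0277). Spock2 is itself on the marker list for alveolar type 1-like cells. Timp1, a soluble inhibitor, was 1159 CPM in the first and 2839 CPM in the last block of activated fibroblast-like cells (edgeR adjusted p = 0.000198), where Sparc, a collagen-binding protein, was 11685 and 8674 CPM (0.0186). Timp1 is itself on the marker list for activated fibroblast-like cells. Fbln1 was 245 and 121 CPM in activated and 425 and 221 CPM in alveolar fibroblast-like cells, and Mmp2, a gelatinase, was 1058 and 557 CPM in alveolar fibroblast-like cells (edgeR adjusted p = 0.0401).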

How the data were processed

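Single-cell RNA was measured in 1 WT and 1 CCR2KO library on a BD Rhapsody system, with 20000 cells loaded. Per the file headers and values, the authors deposited unnormalized counts (whole numbers); the median nonzero value was 9 in WT and 11 in CCR2KO, so they were treated as reads. The build was GRCm38, and Bowtie2 2.4.2, cutadapt 2.10 and R 3.6.3 are named, per the submitters' processing notes; the counting rule and strand are not given in the sources used here. Tagged columns numbered 17854 and 15955; 680 and 533 columns, named as doublets or without a tag, were not used.

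Cells were required to have 200 genes or more and no more than 25% mitochondrial reads, and 415 WT and 345 CCR2KO doublets (Scrublet, expected rate 0.06) were left out; the automatic limit of WT, 0.2814, was used for both because that of CCR2KO marked 0 cells, a choice made after seeing the data. Clustering used Scanpy 1.11.5 and leidenalg 0.10.2 (1996 variable genes without the members and Ccr2, 40 components, 20 neighbours, resolution 1.5, seed 1), with the SkylakeX kernel of OpenBLAS; another seed and another kernel were tried after seeing the data. Cluster 22 was split further, and cluster 26 was set aside at a mean doublet score above 0.12, also after seeing the data. Names needed at least 3 markers among the 100 leading genes and 1.5 times those of the next class.

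Reads were summed per type and tag with at least 10 cells, and types with at least 3 such tags per genotype were tested with edgeR 4.0.16 (filterByExpr, TMM, quasi-likelihood test, Benjamini-Hochberg adjustment over all genes of a type, threshold 0.05). CPM used plain totals. A type in a tag held between 265902 and 13892578 reads. The genotype fit had no block; the tag block fit had genotype as a covariate. Simulated data were used for the genotype fit only, not for the tag block or interaction fits. The genotype fit made few false calls and left most 2-fold changes uncalled in every type. In most types it left most 4-fold changes uncalled as well. DESeq2 1.42.0 and other filters, clusterings and tag sets were alternatives. All 29 members are named in their highest type, every pair under the threshold is named, and of partner genes up to 3 per type. The members and lists were chosen with earlier results of these data known. Scripts ran in R 4.3.3 and Python 3.11.15 (scikit-learn 1.9.0, pandas 2.3.3, numpy 2.4.6, scipy 1.17.1, figures in matplotlib 3.10.9).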

Additional observations from a re-analysis of the deposited data

Results flagged for a closer look

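Dixon's criterion set the highest or lowest tag against the others in 76 groups of tags (38 gene and type pairs in each genotype). Chance meets it in about 1 in 20 groups if all tags of a group are of 1 kind. Each group here pooled the 3 tag blocks, so that rate is no baseline for these groups. The criterion was met by 7 groups, each through its highest tag, and each time this was a tag of the first block. The part of the blocks in this was not tested. In alveolar type 1-like cells CCR2KO tag 3, with 21 cells, stood apart for Col4a3 (663 CPM, next tag 369), Col4a5 (490 CPM, next 244) and Lamb3 (270 CPM, next 187). CCR2KO tag 1, with 28 cells, stood apart for Col4a4 there (372 CPM, next 246). In smooth muscle-like cells WT tag 3 had 239 CPM of Col4a6 (next 105), from 189 reads in 32 cells, and CCR2KO tag 1 had 1273 CPM of Col18a1 (next 849). In broad endothelial-like cells CCR2KO tag 2 had 94.3 CPM of Hspg2 (next 45.4).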

How the results depend on the processing

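The count of members called by genotype was 0 in all alternatives but Leiden resolution 0.8, where it was 1 (Lama2 in alveolar fibroblast-like cells, log2 0.65, edgeR adjusted p = 0.0429). With tag numbers as a replicate block it was 0, with 23 pairs at an unadjusted p under 0.05; samples of the same number correlated from -0.01 to 0.53 and only 3 of 8 correlated best with their own number, so the numbers were not taken as pairs. The tag block count of 10 became 28 with DESeq2. Fitted in 1 library it was 3 in CCR2KO (all among the 10) and 11 in WT (5 among the 10). It was 3 in single endothelial clusters and between 7 and 11 with 1 tag left out, and the cause was not tested. For DESeq2, for 1 library alone and with 1 tag left out, the share of all genes is not given here. These counts are therefore not set against one. With the clustering repeated after seeing the data, the tag block count was 17 (another seed) and 18 (another numerical kernel). The genotype count was 0 in both (19 and 21 pairs at an unadjusted p under 0.05 by edgeR). Named genotype differences turned sign as follows, none called. With DESeq2 Col4a1 in pericyte-like cells was 0.00148 and Nid2 in lymphatic-like cells 0.0538; without TMM factors Nid2 was 0.0677. At resolution 0.8 Lama4 in alveolar fibroblast-like cells was 0.0426. With the strict cell filter Col4a1 was 0.124, Lama4 0.103, Lamb1 in alveolar fibroblast-like cells -0.0163 and Itga1 in pericyte-like cells -0.0232. With the replicate block Lamb1 was -0.0409 and Itga1 -0.0545; with tag block as covariate Nid2 was 0.00864 and Itga1 -0.00292. With 1 tag left out Col4a1 ranged from -0.124 to 0.0731, Lama3 in alveolar type 1-like cells from -0.185 to 0.376, Lama4 from -0.138 to 0.0883, Lamb1 from -0.0341 to 0.0593, Nid2 from -0.266 to 0.272, Agrn in alveolar type 1-like cells from -0.145 to 0.0344 and Itga1 from -0.194 to 0.169. What the genotype test could call was limited in every type, since most 2-fold changes in simulated counts went uncalled. In most types most 4-fold changes went uncalled as well.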
